A study of Mus musculus with 6 samples.

Results

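F3, which encodes tissue factor, was measured beside 6 genes that regulate or sense coagulation, Tfpi, Tfpi2, Thbd, Procr, F2r and F2rl1, in maxillary processes of WT and Dlx2-overexpressing mouse embryos at E12.5. These 7 genes, matched by symbol, are among the 53801 genes counted. F3 was selected on its lower level in the overexpressing samples, and the other 6 were chosen by their role with the same contrast already known, so the genotype differences of all 7 are descriptions and carry no p-value. All 7 were lower in the 3 overexpressing samples than in the 3 WT samples, with no overlap between the groups. The same held for 17.3% of all genes tested.

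Tissue factor is a membrane protein that binds coagulation factor VII and starts the clotting cascade. Tissue factor pathway inhibitor blocks this first step, and thrombomodulin together with the endothelial protein C receptor directs thrombin to activate the anticoagulant protein C. Thrombin and other proteases also signal to cells by cutting protease-activated receptors, which are G protein-coupled. In the embryo the system is known for its part in keeping vessels intact, and tissue factor is made outside the blood by pericytes, epithelia and other cells.

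The tissue was the intact maxillary prominence of C57BL/6J embryos. WT embryos were compared with Wnt1cre; Rosa26Dlx2/- embryos (Dlx2OE), which carry a Cre driven by Wnt1 and a Rosa26 CAG-LSL-Dlx2-3xFlag knock-in, so that the added Dlx2 is made in cells of the neural crest lineage once Cre has removed the stop. The WT label names neither allele, so an effect of Wnt1cre itself cannot be told apart from that of Dlx2. Each genotype has 3 RNA samples, and the number of littermates behind the RNA is stated differently in the labels and the methods, so a sample may hold more than 1 embryo. In such bulk tissue, fewer cells of a type and less RNA per cell cannot be told apart.

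RefSeq promoter windows (GRCm38.p6) were found for F3, Tfpi, Tfpi2, Procr and F2r. The AP-1 site, written TGACTCA and searched on both strands, was in the windows of F3, Procr and F2r, and in 5.2% of the 32851 promoter windows of 300 bases. These 3 upstream sequences are shown because tissue factor and 2 of the genes described with it carry the same letters there. They run 5′ to 3′ from 250 bases before the RefSeq start and stop at the GENCODE gene, with the AP-1 letters in capitals.
F3, chr3:121723287-121723536, forward strand: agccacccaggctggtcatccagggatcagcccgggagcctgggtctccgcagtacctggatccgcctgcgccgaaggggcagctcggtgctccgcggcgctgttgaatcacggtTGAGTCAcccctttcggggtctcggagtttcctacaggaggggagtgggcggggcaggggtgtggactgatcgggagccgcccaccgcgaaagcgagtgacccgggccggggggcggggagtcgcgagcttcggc
Procr, chr2:155750967-155751116, forward strand: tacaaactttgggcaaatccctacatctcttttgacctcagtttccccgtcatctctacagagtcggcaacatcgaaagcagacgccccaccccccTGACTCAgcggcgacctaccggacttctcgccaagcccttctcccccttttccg
F2r, chr13:95618488-95618716, reverse strand: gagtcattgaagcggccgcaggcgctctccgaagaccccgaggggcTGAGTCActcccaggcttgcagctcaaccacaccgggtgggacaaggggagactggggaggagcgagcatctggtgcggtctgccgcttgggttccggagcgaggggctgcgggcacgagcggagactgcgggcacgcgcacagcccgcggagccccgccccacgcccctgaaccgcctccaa
The match began 135 bases before the RefSeq start in F3, 154 in Procr and 204 in F2r. The windows of F3 and F2r carried the reverse complement TGAGTCA. The homeodomain core TAATT, found in 27% of windows, matched only those of Tfpi2 among the 5 genes. The Sp1 GC box GGGCGG, found in 35.7% of windows, matched 3 times in the F3 window and once in that of F2r. It also matched in both Tfpi windows and in 1 Tfpi2 window, and the Procr window had none. The windows run 50 bases past the RefSeq start. TATAAA (13.6% of windows) lay 43 bases after the start in F3 and 127 bases before it in Tfpi. CACCC (57.5%) was found in all 5 genes. A match describes letters only, and binding was not measured.

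The libraries held 26155500 to 31308813 counts on genes. Dlx2 had 42.9, 35.0 and 45.2 CPM (counts scaled to library size with TMM factors) in WT and 119, 131 and 123.2 in Dlx2OE, a log2 fold change of 1.60 (edgeR, adjusted p = 0.00241), so the gene targeted matched the labels. Reads on no annotated gene made up 5.34 to 6.03% in 4 of the libraries, 8.21% in Dlx2OE replicate 2 and 15.4% in Dlx2OE replicate 3. Of 17514 genes tested, 606 were called lower in Dlx2OE and 524 higher at an adjusted p under 0.05. Many more passed an unadjusted p under 0.05 in edgeR, among them Snai2 at rank 5121 by p. The floor of 3 counts came to 0.0955 to 0.111 CPM and covers counting error only, since reads copied from one molecule are not independent.

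All 7 genes passed the filter on low counts. F3, Tfpi2 and F2r were called lower, beside 3.46% of all genes tested, and none was called higher, beside 2.99%. Groups did not overlap, with Dlx2OE lower, for 7 of the 7, beside 17.3% of all genes tested, and for none with Dlx2OE higher, beside 16.7%. The median log2 fold change was -0.94 over the 7 genes and 0.0028 over all genes tested. Since the contrast chose the genes, nothing is read from these counts, and a call on any of the 7 is a description of these samples, not a test.

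Per length of exon, the 7 genes spanned a wide range in WT. F2r, the main thrombin receptor Par1, was highest at 68.0 ± 5.72 RPKM (SD, n = 3), followed by F3 at 17.0 ± 2.31 RPKM. The other 5 lay lower, from 5.01 ± 0.479 RPKM for Tfpi and 4.45 ± 0.474 for Thbd through 3.67 ± 1.79 for F2rl1 and 1.76 ± 0.505 for Procr to 0.743 ± 0.182 for Tfpi2. F2r and F3 were separate from each other and from the rest in all 3 WT samples. The ranges of neighbours overlapped between Tfpi and Thbd, and F2rl1, at 1.78 to 5.35 RPKM, overlapped Tfpi, Thbd and Procr. Tfpi2 was below Procr in every WT sample.

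**Figure D1:**
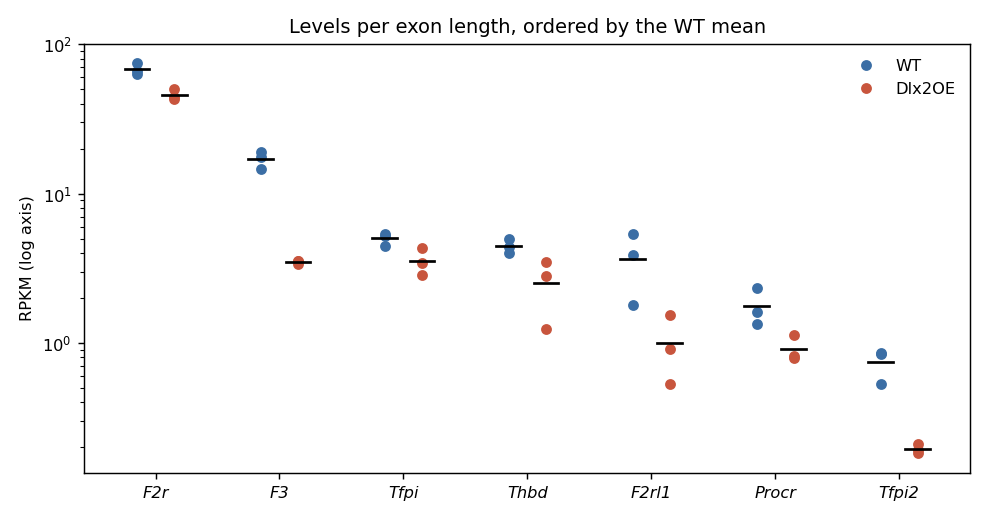
RPKM on a log axis of each of the 7 genes in 3 WT and 3 Dlx2OE samples, ordered by the WT mean. F2r is highest in WT at 68.0 RPKM and Tfpi2 lowest at 0.743 RPKM.

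F3 lies on chromosome 3 from 121723537 to 121735048 on the forward strand (GRCm38), with 6 exons and 882 coding bases in its longest coding transcript. It had 36.7, 48.2 and 44.3 CPM in WT and 8.88, 8.50 and 8.94 CPM in Dlx2OE. The 3 Dlx2OE samples sat within a narrow band, and every WT sample was far above it. The means were 43.1 ± 5.84 and 8.77 ± 0.235 CPM (SD, n = 3 each), a fitted log2 fold change of -2.30 with a standard error of 0.136, or 4.91-fold more in WT. Over 13 alternative fits, the removal of each sample included, the log2 fold change lay between -2.40 and -2.21.

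**Figure D2:**
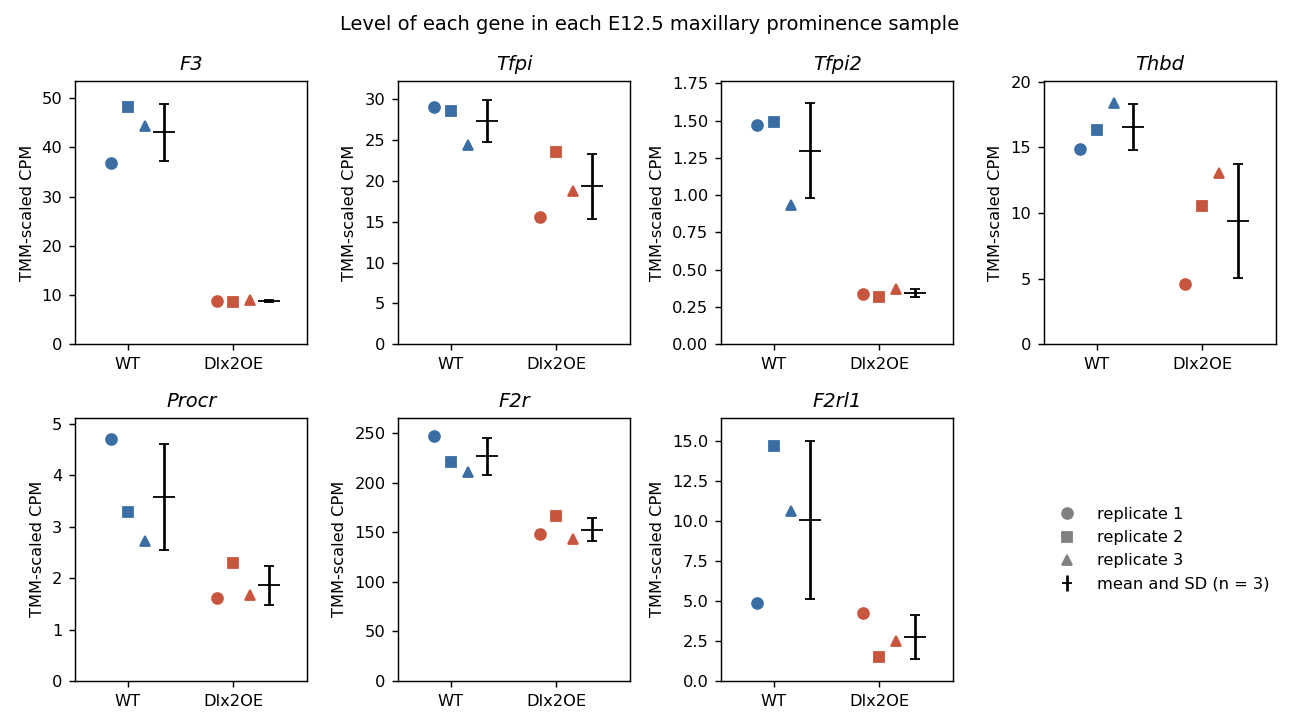
CPM of each gene in the 3 WT and 3 Dlx2OE samples as points, with the mean and SD of each group as bars. In every panel the highest Dlx2OE point lies under the lowest WT point, and the Dlx2OE points of F3 lie closest together for their level, at 8.50 to 8.94 CPM.

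The inhibitors of tissue factor were both lower in every Dlx2OE sample than in any WT sample. Tfpi2, a protease inhibitor related to Tfpi that is bound to the extracellular matrix, had 43, 45 and 29 counts in WT and 10 in each Dlx2OE sample. Those low counts came to 1.30 ± 0.318 CPM in WT and 0.342 ± 0.0257 in Dlx2OE (SD, n = 3), with a log2 fold change of -1.91 and a standard error of 0.333. Tfpi had 29.1, 28.6 and 24.3 CPM in WT and 15.6, 23.6 and 18.8 CPM in Dlx2OE. WT replicate 3 and Dlx2OE replicate 2 were nearly level for Tfpi, whose log2 fold change of -0.50 (standard error 0.169) was not called. The call for Tfpi2 was lost without WT replicate 1, WT replicate 2, Dlx2OE replicate 2 or Dlx2OE replicate 3, and its log2 fold change stayed between -2.11 and -1.81.

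Tfpi is on chromosome 2 from 84432855 to 84476775 (reverse strand, 10 exons) and Tfpi2 on chromosome 6 from 3962595 to 3988919 (reverse strand, 5 exons). None of the 7 genes shares exonic bases with another gene in the annotation.

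Thbd and Procr encode the 2 receptors of the protein C pathway, thrombomodulin and the endothelial protein C receptor. Both are on chromosome 2, Thbd as a single exon from 148404466 to 148408188 on the reverse strand and Procr with 4 exons from 155751117 to 155755471 on the forward strand. Thbd had 14.9, 16.4 and 18.4 CPM in WT and 4.62, 10.5 and 13.03 CPM in Dlx2OE, where replicate 1 was well below the other two. Procr had 4.72, 3.29 and 2.73 CPM in WT and 1.62, 2.29 and 1.66 CPM in Dlx2OE, and WT replicate 3 came close to Dlx2OE replicate 2. Neither was called, with log2 fold changes of -0.82 (standard error 0.335) and -0.94 (0.291), while the Wald test of DESeq2 called both. Without Dlx2OE replicate 1 the log2 fold change of Thbd was -0.50, and over the 6 fits that drop a single sample it lay between -1.13 and -0.50.

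The markers of endothelium, the cells in which these receptors are best known, were detected in all samples. Their summed level was 401 to 565 CPM in WT and 289 to 436 CPM in Dlx2OE, with Dlx2OE replicate 1 lowest. All 12 markers had a lower mean log2 level in Dlx2OE, beside 49.7% of all genes tested, and 1 of them, Emcn, was called (edgeR log2 fold change -0.97, adjusted p = 0.0464), with 4 lower at an unadjusted p under 0.05 and 3 called lower by DESeq2. Cdh5, the endothelial cadherin and the highest of the list per length in WT, had a log2 fold change of -0.31 (adjusted p = 0.293). As a percentage of the summed endothelial level, Thbd was 2.64, 4.08 and 3.78 in WT and 1.60, 2.41 and 3.36 in Dlx2OE, Tfpi was 5.15, 7.14 and 5.00 against 5.40, 5.41 and 4.84, and Procr was 0.835, 0.82 and 0.56 against 0.56, 0.526 and 0.428. For Thbd and Tfpi these shares overlapped between genotypes and for Procr they met at 0.56. Taken against each of the 12 markers, after the data were seen, Thbd was separate and lower in Dlx2OE for 1, Procr for 2 and Tfpi for 1. Against Emcn, Tfpi was separate and higher. The part of the endothelial level in the values of these genes was not tested.

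F2r and F2rl1 encode the receptors Par1, cut by thrombin, and Par2, cut by trypsin-like proteases and by the tissue factor-factor VIIa complex. F2r had 248, 222 and 211 CPM in WT and 149, 167 and 144 CPM in Dlx2OE, a modest and even shift. The means were 227 ± 19.1 and 153 ± 11.98 CPM (SD, n = 3), with a log2 fold change of -0.57 and a standard error of 0.110. F2r was called lower, and the call was lost without WT replicate 1, WT replicate 2, Dlx2OE replicate 2 or Dlx2OE replicate 3.

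F2rl1 had 4.89, 14.7 and 10.7 CPM in WT and 4.22, 1.47 and 2.51 CPM in Dlx2OE. The samples of each group spread widely, and the lowest WT sample, replicate 1, nearly met the highest Dlx2OE sample, also replicate 1. Its log2 fold change of -1.88 had a standard error of 0.484 and was not called. It was called by DESeq2, without a filter on low counts, and without Dlx2OE replicate 1, where the log2 fold change was -2.35.

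The summed level of surface epithelium markers was 725, 1319 and 988 CPM in WT and 1874, 584 and 606 CPM in Dlx2OE. WT replicate 1 was thus lowest in its group for F2rl1 and for this sum, and Dlx2OE replicate 1 highest in its group for both, with Krt5 and Krt14 at 538 and 490 CPM there. Of the 10 markers, Krt8 and Krt18 were called lower and none higher by edgeR, and 6 had a lower and 4 a higher mean log2 level in Dlx2OE. As a percentage of the sum, F2rl1 was 0.674, 1.11 and 1.08 in WT and 0.225, 0.251 and 0.414 in Dlx2OE, and F3 was 5.07, 3.66 and 4.48% of it against 0.474, 1.46 and 1.47%. These shares depend on the markers, since Krt5 had a log2 fold change of 1.91 (adjusted p = 0.0792) and Krt8 of -2.11. Taken marker by marker, a comparison added after the data were seen, F2rl1 was separate and lower in Dlx2OE against 7 of the 10 and overlapped between genotypes against Epcam, Krt8 and Krt18. Against Epcam it was 4.47, 7.15 and 7.35% in WT and 3.56, 2.79 and 5.65% in Dlx2OE. F3 was separate and lower against 8 of the 10 and overlapped against Krt8 and Krt18. F3 and F2rl1 were chosen with this contrast known, which makes a lower ratio to most markers likely. Nothing is read from these shares and counts.

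For pericytes, another known source of tissue factor, the summed marker level was 322 to 406 CPM in WT and 331 to 414 CPM in Dlx2OE, so the groups overlapped. The sum was mostly Pdgfrb and Notch3, with log2 fold changes of 0.13 (adjusted p = 0.510) and 0.21 (adjusted p = 0.345). Of the 7 markers 4 had a lower and 3 a higher mean log2 level, and 1, Rgs5, was called lower (log2 fold change -1.20, edgeR adjusted p = 0.0176), while 3 were lower at an unadjusted p under 0.05 and DESeq2 called 2. Kcnj8 was at -1.11 (adjusted p = 0.136) and Cspg4 at -0.67 (adjusted p = 0.125). F3 was 11.4, 14.7 and 10.9% of the sum in WT and 2.68, 2.38 and 2.16% in Dlx2OE. Marker by marker, F3 was separate and lower in Dlx2OE against 6 of the 7, Rgs5 and Cspg4 among them, and overlapped against Kcnj8. The choice of F3 makes lower ratios likely here too, so nothing is read from them. The part of epithelial or pericyte levels in the values of F3 and F2rl1 was not tested.

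**Figure D3:**
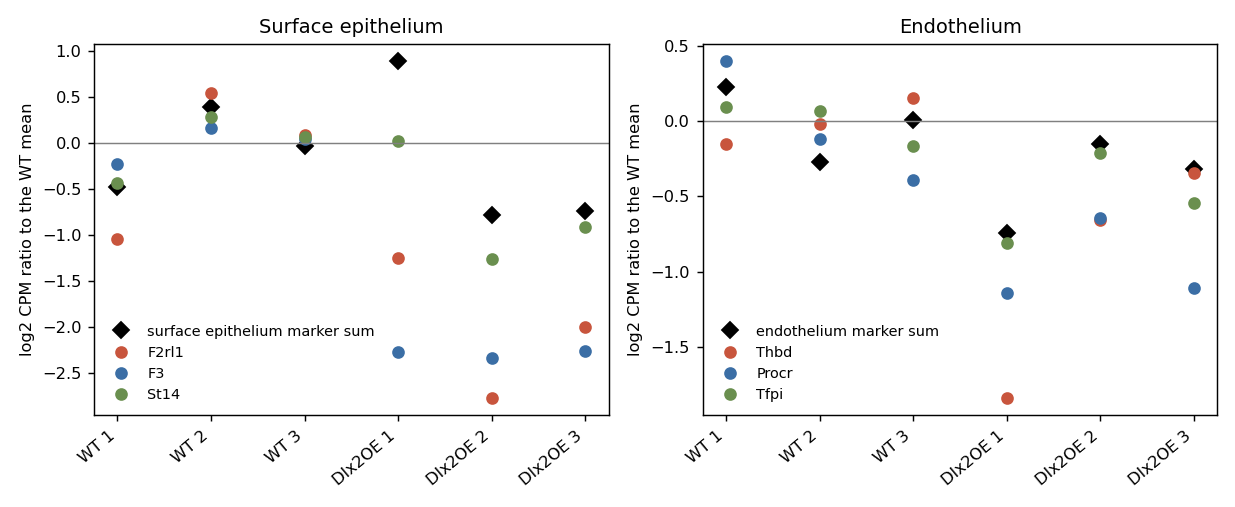
Log2 of CPM over the WT mean in each sample, for the summed surface epithelium markers with F2rl1, F3 and St14 and for the summed endothelial markers with Thbd, Procr and Tfpi. Dlx2OE replicate 1 has the highest epithelial sum, 1874 CPM, and the lowest endothelial sum, 289 CPM.

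Markers of the other cell types in the tissue were counted as well. Crest-derived mesenchyme markers summed to 2068 to 2587 CPM in WT and 2670 to 3072 in Dlx2OE, with Twist1 called higher (2 by DESeq2). Erythroid markers summed to 3140 to 4274 and 1935 to 2506 CPM with 3 of 8 called lower (5 by DESeq2), beside 3.46% of all genes tested. Macrophage markers summed to 72.1 to 75.2 and 50.2 to 55.4 CPM with C1qa called lower (2 by DESeq2). At an unadjusted p under 0.05 in edgeR, 3 mesenchyme markers were higher, and 6 erythroid and 3 macrophage markers were lower. Platelet markers summed to 30.1 to 41.3 CPM in WT and 24.1 to 32.9 in Dlx2OE, and skeletal muscle markers to 93.1 to 177 and 34.5 to 106. Neuronal markers summed to 50.2 to 237 CPM in WT and 170 to 778 in Dlx2OE, and glial markers to 66.7 to 79.4 and 27.7 to 234, with Foxd3 at 0 counts in every library. Hepatocyte markers summed to 1.54 to 38.6 CPM in WT, highest in replicate 1, and to 0.369 to 0.828 CPM in Dlx2OE, with Serpina1a at no more than 3 counts in any library. In platelet, muscle, neuronal, glial and hepatocyte lists no gene was called by edgeR; at an unadjusted p under 0.05 there were 1 lower, 1 lower, 2 higher, 1 higher and 2 lower, and DESeq2 called 1 neuronal gene higher and 2 hepatocyte genes lower.

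F2r and F2rl1 are neighbours on the reverse strand of chromosome 13. F2rl1 spans 95511732 to 95525227 and F2r 95601803 to 95618487, with 76575 bp between them and 2 exons in each. On the far side of F2rl1 lies S100z, a calcium-binding protein gene, with an edgeR log2 fold change of -2.97 at low and uneven counts (adjusted p = 0.217). On the far side of F2r, 8689 bp away, lies Iqgap2, a scaffold protein gene, at -0.33 (adjusted p = 0.166). F2rl2 (Par3), whose gene lies within Iqgap2, was at 0.18 (adjusted p = 0.767), and F2rl3 (Par4), on another chromosome, at 0.15 (adjusted p = 0.725). Beside these stand -0.57 for F2r and -1.88 for F2rl1, and differences between the 4 receptors were not tested.

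**Figure D4:**
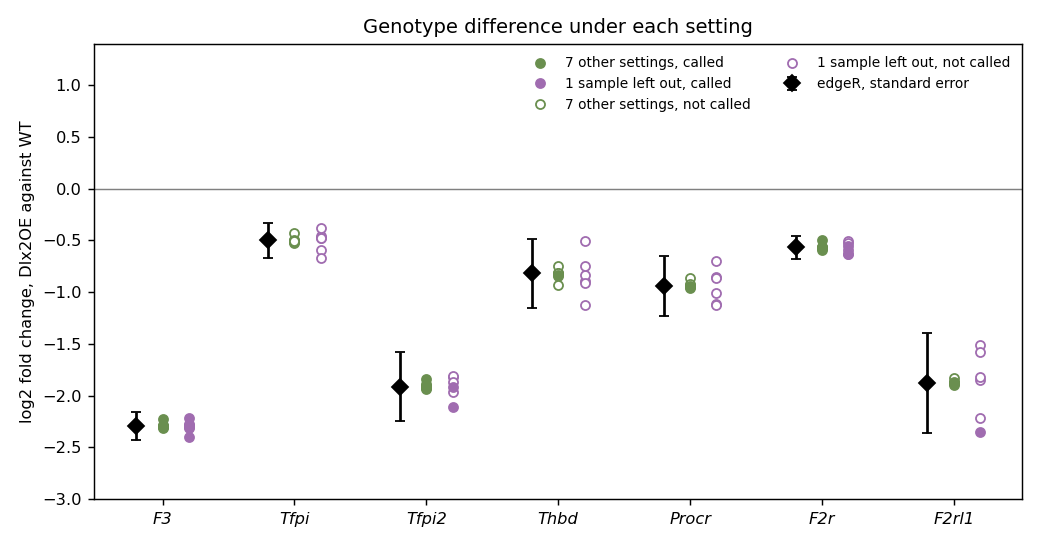
Log2 fold change of Dlx2OE against WT for each gene by edgeR (diamond, with standard error), in 7 other settings and with each of the 6 samples left out; filled points were called at an adjusted p under 0.05. Every value lies below 0, which the choice of the genes makes likely, and those of F3 run from -2.40 to -2.21.

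The wider coagulation system was followed in 7 lists holding 64 genes, of which 43 passed the filter on low counts. Entpd1 was the 1 gene called lower by edgeR, beside 3.46% of all genes tested, and none was called higher, beside 2.99%. At an unadjusted p under 0.05 there were 6 lower and 4 higher. The gene at rank 5121 by p of the 17514 tested also passed that threshold, so these counts alone do not set the lists apart. Of the 43, 24 had a lower and 19 a higher mean log2 level in Dlx2OE, with a median log2 fold change of -0.051. DESeq2 called 3 lower and 2 higher.

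Entpd1 encodes CD39, a membrane enzyme that degrades ATP and ADP and so restrains platelets. It had 27.3, 29.6 and 30.0 CPM in WT and 10.4, 16.2 and 15.6 CPM in Dlx2OE, with every Dlx2OE sample well below WT. The log2 fold change was -1.04 with a standard error of 0.179 (edgeR, adjusted p = 0.0211). The adjusted p ranged from 3.87e-06 to 0.0965 over the alternatives, and was 0.0654 without WT replicate 1, 0.0965 without WT replicate 2 and 0.0511 without Dlx2OE replicate 2. Entpd1 was 4.83, 7.39 and 6.16% of the endothelial sum in WT and 3.61, 3.71 and 4.02% in Dlx2OE. Marker by marker, also compared after the data were seen, it was separate and lower in Dlx2OE against 8 of the 12. It overlapped between genotypes against Pecam1, Tek, Emcn and Egfl7. Entpd1 was named because it was called, which makes lower ratios likely, so nothing is read from this count. The part of the endothelial level in the values of Entpd1 was not tested. Of the other anticoagulants tested, Serpine2, a thrombin-inhibiting serpin, was the highest in WT at 18.3 RPKM (log2 fold change -0.27, adjusted p = 0.159), and Pros1, the protein C cofactor protein S, followed at 10.3 RPKM (-0.05, adjusted p = 0.779). Serpinc1, the gene of antithrombin, was the other way, counted 11, 4 and 4 times in WT against 26, 20 and 20 times under Dlx2 overexpression (log2 fold change 1.81, adjusted p = 0.0595), and was named after its values were seen. The list had 5 of 9 genes tested, 3 with a lower and 2 with a higher mean level, and 2 lower and 1 higher passed an unadjusted p under 0.05.

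Plasma procoagulant factors, made largely by the liver but in part by endothelium and blood cells, were mostly below the filter on low counts, which 5 of 17 passed. The highest in WT were Vwf, which tethers platelets, at 1.96 RPKM (log2 fold change -0.52, adjusted p = 0.429) and F13a1, which cross-links fibrin, at 1.10 RPKM (0.09, adjusted p = 0.799). None was called by edgeR or DESeq2, with 1 lower at an unadjusted p under 0.05. Genes for gamma-carboxylation, the vitamin K-dependent step that clotting factors need, had 2 of 3 tested, Vkorc1l1 at 12.5 RPKM (0.15, adjusted p = 0.364) and Ggcx at 6.55 RPKM (0.13, adjusted p = 0.527), and none passed an unadjusted p under 0.05 or was called by DESeq2.

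Fibrinolysis, the removal of clots by plasmin, had 7 of 11 genes tested, and all 7 had a lower mean log2 level in Dlx2OE with a median of -0.34. None was called by edgeR or DESeq2, and 1 passed an unadjusted p under 0.05. The plasminogen-binding pair Anxa2 and S100a10 was highest in WT, at 120 and 97.0 RPKM, with log2 fold changes of -0.06 (adjusted p = 0.878) and -0.27 (adjusted p = 0.494).

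A list of 8 protease-activated receptor partners held the receptors F2rl2 and F2rl3 and 6 G protein and arrestin genes that carry the signal. Of the 8, 7 had a higher mean log2 level in Dlx2OE, both receptors among them, with a median log2 fold change of 0.18. None was called by edgeR, 3 were higher at an unadjusted p under 0.05, and DESeq2 called Arrb1 and Gna13 higher. Gna11 and Gna12, G protein alpha subunits, were highest in WT at 22.0 and 18.1 RPKM, with log2 fold changes of 0.14 (adjusted p = 0.452) and 0.19 (adjusted p = 0.335).

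Membrane proteases and inhibitors of epithelia that act on or beside Par2 had all 6 genes tested and all 6 at a lower mean log2 level, with a median of -0.69. None was called by edgeR, 2 were lower at an unadjusted p under 0.05, and DESeq2 called Hpn and Tmprss2 lower. The inhibitors Spint2 and Spint1 were highest in WT at 18.1 and 7.50 RPKM, with log2 fold changes of -0.62 (adjusted p = 0.278) and -0.30 (adjusted p = 0.607). Without Dlx2OE replicate 1, the sample with the high epithelial sum, edgeR called Hpn, Tmprss2, St14 and Spint2 lower. That fit also called 969 lower and 975 higher of all 18194 genes tested, against 606 and 524 of 17514 with all samples. None of the 6 list genes was called when any other single sample was left out. The part of the epithelial level in the values of these 6 genes was not tested.

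Transcription factors known to act on F3 or Thbd split evenly, 5 lower and 5 higher of 10, with a median of -0.0086. None passed an unadjusted p under 0.05 in edgeR or was called by DESeq2. Sp1, at 21.4 RPKM, had a log2 fold change of 0.21 (adjusted p = 0.241), and Jun, an AP-1 subunit at 19.8 RPKM, 0.04 (adjusted p = 0.858).

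**Figure D5:**
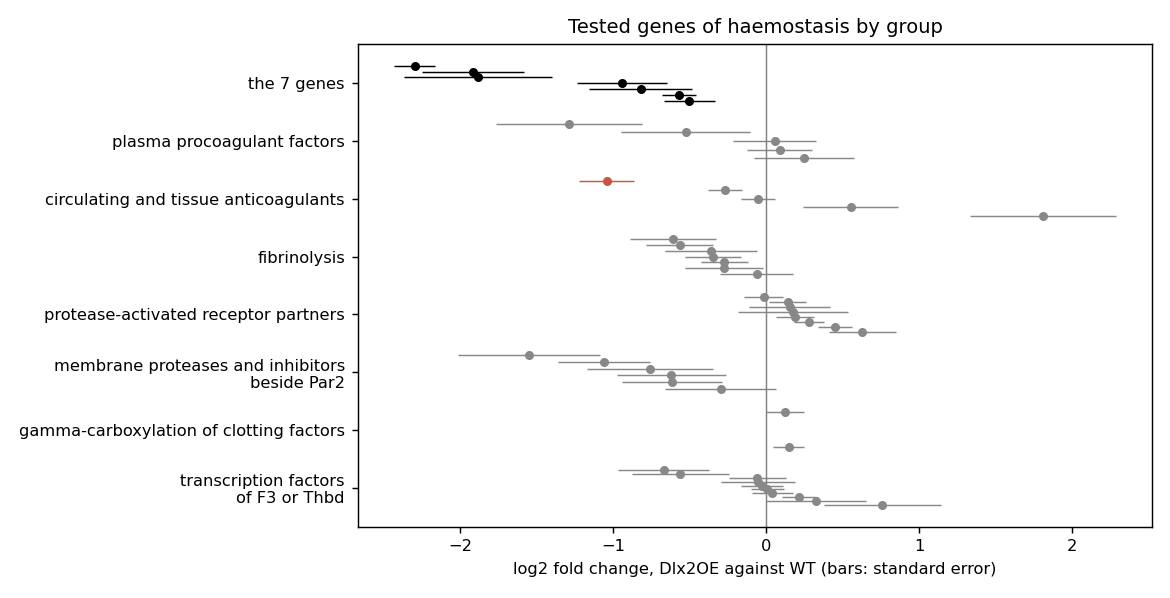
Log2 fold change of Dlx2OE against WT with its standard error for the 7 genes (black) and the tested genes of the 7 pathway lists, with Entpd1, the 1 list gene called, in red. All 7 black points lie below 0, and the lists spread on both sides with a median of -0.051.

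By Pearson correlation of log2 level over the 6 samples, the genes closest to F3 were Ccdc8, Eva1b, Fam114a1, Pck2 and Foxe1. Their values were 0.998, 0.998, 0.998, 0.997 and 0.996. Spearman rank correlations were lower, at 0.714 for Ccdc8, 0.886 for Eva1b and 0.943 for each of the others. The samples form 2 groups by genotype, so these values mostly describe a shared difference between genotypes. Foxe1, a forkhead transcription factor gene, had 32.4, 45.4 and 42.1 CPM in WT and 8.54, 8.98 and 10.6 CPM in Dlx2OE. It was close to F3 in level, with a wider spread in Dlx2OE (SD 1.08 CPM for Foxe1 against 0.235 for F3). The other 4 had smaller differences, from -0.61 to -0.53 on the log2 scale, with little spread within each genotype.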

How the data were processed

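RNA-seq of the maxillary prominence was analysed in 3 WT and 3 Dlx2OE samples, grouped by the genotype in the labels. The authors mapped reads to mm10 with STAR 2.7.3a, counted them per gene with HTSeq 0.12.4 in union mode and deposited raw counts. The annotation release and strand setting are not given in the sources used here. Reads without strand cannot be told apart from those of antisense partners.

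Symbols, positions and exon lengths came from GENCODE M21 (GRCm38), which held 53706 of 53801 identifiers. The test used edgeR 4.0.16 under R 4.3.3: filterByExpr (minimum count 10), TMM factors, the quasi-likelihood F test on genotype, and Benjamini-Hochberg adjustment over 17514 genes, with a gene called at an adjusted p under 0.05. Log2 CPM used a prior count of 2, and RPKM is CPM per kilobase of exon. Alternatives were DESeq2 1.42.0, RLE factors, library size alone, no filter, at least 10 counts in each library, a block on replicate number, dropping mitochondrial and haemoglobin genes, a log2 fold change beyond 1, and leaving out each sample. Scripts were tested on simulated data. Figures used matplotlib 3.10.9.

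The 7 genes and all lists were chosen with earlier results of these data known. Named genes were the 7, called genes and the 2 highest in WT of each pathway list, the 5 most correlated with F3 (mean log2 CPM of at least 1), chromosomal neighbours, Dlx2, and the highest marker or one at or under 3 counts. List genes called under other settings were named after their values were seen. Marker lists are summarised and proteins were not compared here.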

Additional observations from a re-analysis of the deposited data

Results flagged for a closer look

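Reads on no annotated gene, which the comparisons do not use, made up 15.4% in Dlx2OE replicate 3, against 5.34 to 5.79% in WT. Without that sample, the log2 fold change of F3 was -2.31, against -2.30 with all samples.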

How the results depend on the processing

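All 7 genes kept a lower level in Dlx2OE in each of the 13 alternatives. These reuse the samples that chose the genes, so the direction could hardly change and nothing is read from it. DESeq2 called 6 of the 7 lower, all but Tfpi (Thbd -0.83, Procr -0.95 and F2rl1 -1.88), and 3 pathway list genes lower and 2 higher. Of the 33535 genes with a p-value from DESeq2, 1389 were called lower and 1070 higher. With no filter on low counts, F2rl1 (-1.90) was also called, with 3 list genes lower. Of the 33556 genes then tested, 1179 were called lower and 865 higher. With 10 counts in every sample, 1 list gene, Gna13, was called higher. Requiring a log2 fold change beyond 1 left 2 of the 7, F3 and Tfpi2, and 284 lower and 262 higher genes. The cause of these shifts was not tested. Leaving out each sample in turn gave 1 to 4 of the 7 called, 0 to 5 list genes lower and 0 to 1 higher. Of the 17902 to 18194 genes tested in these fits, 40 to 1298 were called lower and 39 to 975 higher, the fewest without WT replicate 2. Over these, log2 fold changes were -2.11 to -1.81 for Tfpi2, -0.64 to -0.51 for F2r and -2.35 to -1.51 for F2rl1. Sample numbers did not pair the genotypes: deviations of samples with the same number correlated at -0.0718, -0.211 and 0.0731, and WT replicate 1 correlated best with Dlx2OE replicate 2 (0.345). With a replicate block 3 of the 7 were still called, F3 at -2.29, and 961 of 17514 genes in all. With 10 counts in each Dlx2OE sample, depth limits Tfpi2.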
